A study of Mus musculus with 128 samples.

Results

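Liver transcripts of BALB/c mice that drank a glucose solution for 6 h were set against those of BALB/c mice that drank water over the same time. The comparison takes 10 libraries, 7.81% of all in the series, chosen by their labels of strain, drink and time, with 5 on glucose and 5 on water. All 10 came from wild type male BALB/c mice, an inbred strain, bought at 8 weeks of age. Before the experiment they spent 1 week learning to eat in a fixed evening window. All were fasted for 21 h, had no drinking water from 4 pm, and at 7 pm received chow that drew 10% of its calories from fat and 64.5% from carbohydrate. The groups differ only in the drink, which was plain water or water with 20% glucose, so that the water group is refed and not fasted. That each library is a separate mouse is read from the protocol and not stated outright. The p-values measure the spread between the libraries of the fit used. In the main test these are all libraries of the series and not only the 10. How much each mouse drank is not known here.

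Hepatocytes take up glucose through the transporter Slc2a2 and trap it by phosphorylation. Carbon from glycolysis then feeds glycogen and fatty acid synthesis. Sugar phosphates activate the transcription factor ChREBP (gene Mlxipl), whose known targets include pyruvate kinase (Pklr), enzymes of fructose breakdown, the hormone Fgf21 and lipogenic enzymes. Insulin acts beside it through SREBP-1c (gene Srebf1), which drives lipogenesis, and by keeping FoxO1, the activator of gluconeogenic genes, out of the nucleus.

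Total counts were 20401085 to 25895597 per library. Markers of hepatocytes summed to between 76240 and 112700 CPM, the counts of a gene scaled to the total of its library, and the tissue on the label is liver. CPM values here are scaled for library composition but not for gene length, so levels are compared between libraries and not between genes. A list of 15 kidney genes summed to 1228 CPM in water replicate 1 and 2143 CPM in glucose replicate 3, against 1.49 to 3.01 CPM in the other 8 libraries. Kap, a proximal tubule transcript, stood at 781 and 1216 CPM in those libraries, and Umod, made by the thick ascending limb, at 35.0 and 83.1 CPM, with Umod at 0 in the other 8. Each group thus holds 1 library with kidney transcripts, and the values that touch a result are given without the pair. Adrenal gland transcripts were also highest in this pair, at 23.7 and 23.8 CPM against 2.76 to 11.8 CPM in the other 8 libraries. Members of that list differed: Cyp11b1 stood at 2.63 and 1.79 CPM in the pair and at 0 to 0.113 CPM elsewhere. Cyp21a1 was highest in glucose replicate 1 (7.49 CPM). Skeletal muscle transcripts ranged from 4.91 to 383 CPM in the water libraries and from 10.9 to 401 CPM in the glucose libraries. Erythroid transcripts reached 1726 CPM in glucose replicate 2, where mitochondrially encoded genes took 12.1% of counts against 4.40% to 7.53% elsewhere. Cornified epithelium transcripts, a list chosen after the data were seen, summed to 120 CPM in glucose replicate 5 and to 5.34 to 16.1 CPM in the other 9 libraries. Its members differed: Krtdap, Lor and Asprv1 were highest in that library (31.6, 18.3 and 16.1 CPM). Krt1 (0 CPM) and Krt10 (4.30 CPM, the others 3.76 to 7.23 CPM) were not raised there. In bulk tissue, fewer cells of a type and less RNA per cell cannot be told apart.

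**Figure D1:**
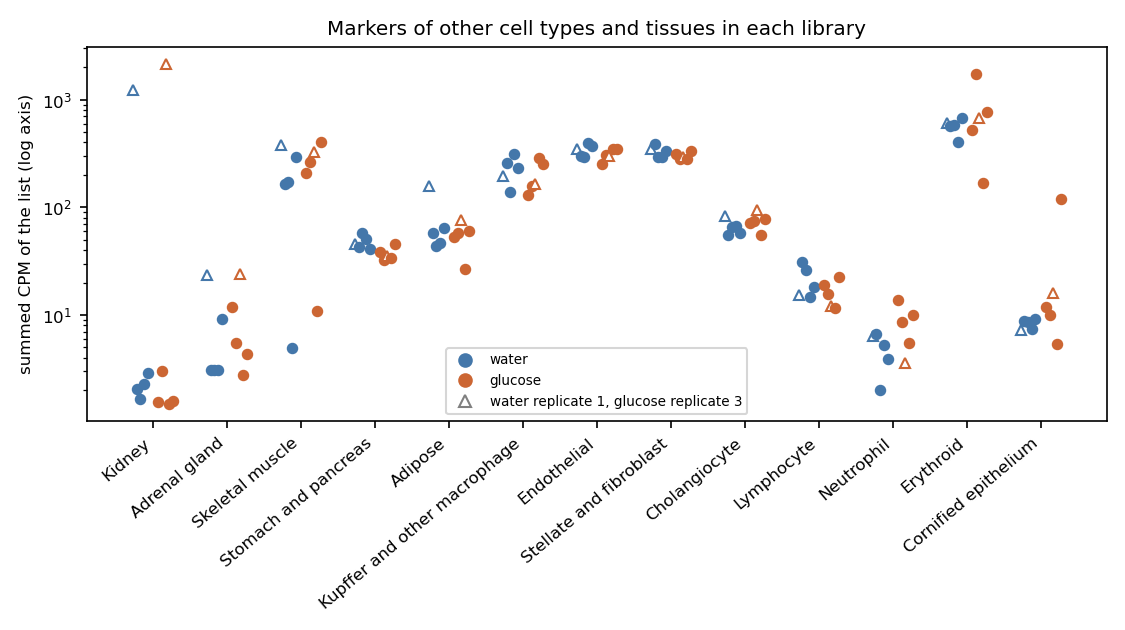
Summed CPM (log axis) of 13 lists of marker genes of other cell types and tissues in each of the 10 libraries, with water in blue and glucose in orange. Open triangles mark water replicate 1 and glucose replicate 3, which stand far above the other 8 libraries for kidney.

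Genes of ChREBP and lipogenesis gave the clearest separation between the drinks. Fatty acid synthase (Fasn), acetyl-CoA carboxylase (Acaca), stearoyl-CoA desaturase (Scd1), the elongase Elovl6, pyruvate kinase (Pklr), triokinase (Dak, the third enzyme of fructose breakdown), Rgs16 and Fgf21 were higher in every glucose library than in every water library. Their fitted differences ran from 1.11 (Dak) to 3.02 (Rgs16) on the log2 scale. None of these passed the main test. With the spread taken from all libraries of the series in one model (edgeR, quasi-likelihood test, Benjamini-Hochberg adjustment, adjusted p below 0.05), 0 of 16886 genes were called (0%). Without adjustment, 648 genes (3.84%) had a p below 0.05, of which 365 (2.16%) were higher with glucose and 283 (1.68%) lower. DESeq2 with the same model called 5 genes (0.0296%). Acaca was among them, with a log2 difference of 1.23 ± 0.28 (SE, adjusted p = 0.0278). The other 4 were sparse. Among them were the clone gene Gm26598 and the pancreatic enzyme genes Cela2a and Pnliprp2, whose highest levels in any of the 10 libraries were 0.550 and 0.0441 CPM and which had no read in any glucose library.

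When the 10 libraries were fitted alone, so that only their own spread entered, edgeR called 15 of 13904 genes (0.108%). Of these, 13 were higher with glucose (0.0935%): Fasn, Dak, Pklr, Acaca, Scd1, Elovl6, Rgs16, Hcn3, Ddhd2, Osgin1, Gpd2, Klhdc7a and Lrrc28. The remaining 2 (0.0144%), Ppm1k and Fam214a, were lower. With water replicate 1 and glucose replicate 3 also left out, 6 of 13858 genes were called (0.0433%), all higher: Acaca, Fasn, Dak, Scd1, Elovl6 and Osgin1. The size of the differences hardly moved between the fits, and the standard errors did: for Fasn it was 0.44 with all libraries and 0.18 with the 10 alone. Read without a model, every glucose library lay above every water library for 101 genes (0.598%), and every water library above every glucose library for 84 (0.497%).

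**Figure D2:**
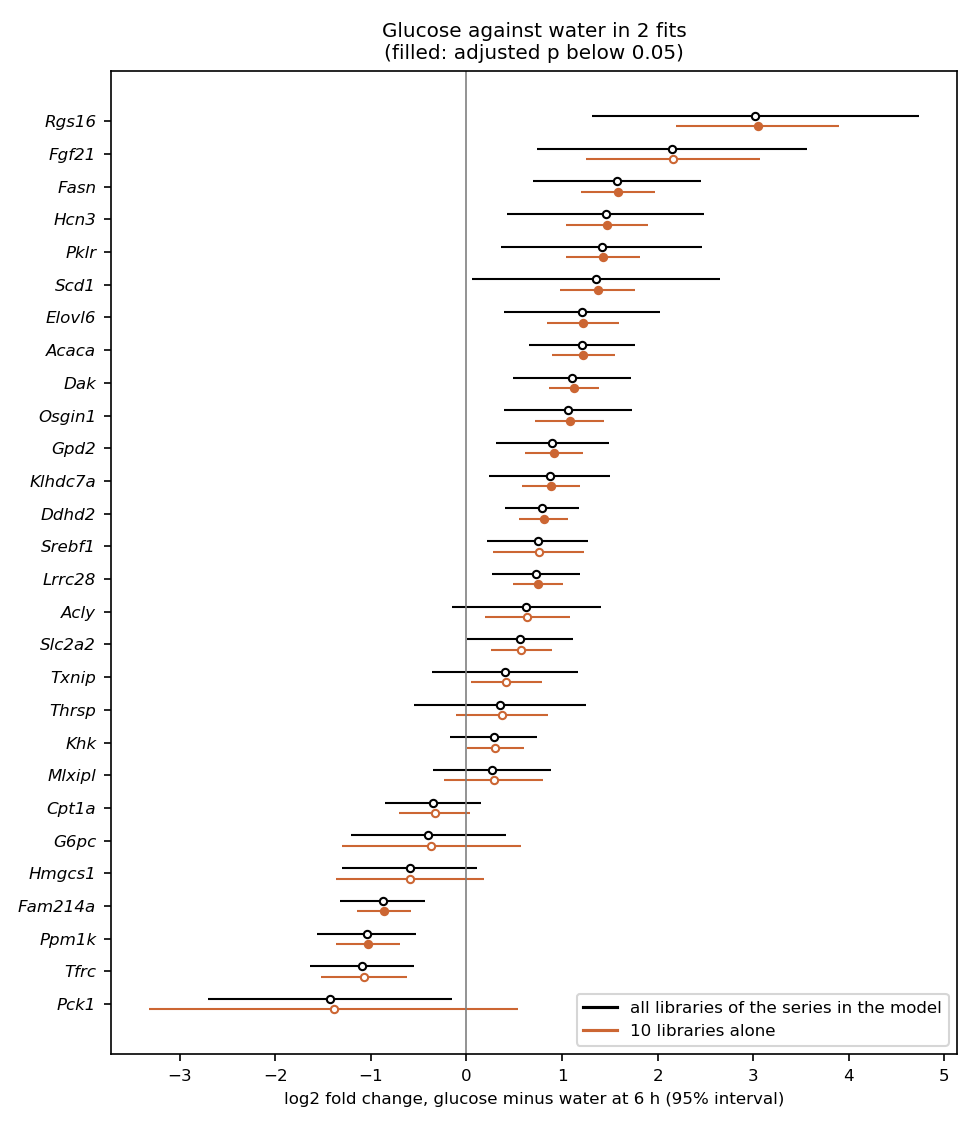
Log2 fold change, glucose minus water at 6 h, with its 95% interval for 28 genes. Black marks the model of all libraries and orange the model of the 10 libraries alone, and filled symbols have an adjusted p below 0.05, which occurs only in the latter. Points of the same gene nearly coincide, while the black intervals are wider for most genes.

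The promoter of Pklr carries the textbook carbohydrate response element, the sequence that ChREBP binds, and is shown because Pklr is among the separated genes. In the RefSeq table of GRCm38.p6 promoters (C57BL/6J sequence, so that BALB/c bases may differ), a search of both strands of the 250 bases before each start site for the carbohydrate response element pattern matched 32 of 32851 promoters (0.097%). The E-box CACGTG, which the element contains in degenerate form, was present in 1978 (6.021%). Of the 15 genes called with the 10 libraries alone, 12 had a promoter in the table, with 16 promoters between them. The element was found for 1 of these genes, Pklr, 170 bases before the start site of its liver promoter, and CACGTG for 1, Fam214a. Of 3 further genes searched, Fgf21, Khk and Mlxipl, CACGTG was found for all 3, although Khk and Mlxipl overlapped between the drinks; for Fgf21 it begins 50 bases before the start site. The windows of Pklr and Fgf21 are given with the match in capitals.
Pklr, chr3:89136373-89136622, plus strand: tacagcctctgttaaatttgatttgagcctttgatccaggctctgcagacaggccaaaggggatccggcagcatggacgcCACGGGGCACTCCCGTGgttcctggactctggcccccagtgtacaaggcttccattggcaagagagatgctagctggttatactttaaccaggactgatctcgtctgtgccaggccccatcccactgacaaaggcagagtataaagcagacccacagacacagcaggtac
Fgf21, chr7:45615491-45615740, minus strand: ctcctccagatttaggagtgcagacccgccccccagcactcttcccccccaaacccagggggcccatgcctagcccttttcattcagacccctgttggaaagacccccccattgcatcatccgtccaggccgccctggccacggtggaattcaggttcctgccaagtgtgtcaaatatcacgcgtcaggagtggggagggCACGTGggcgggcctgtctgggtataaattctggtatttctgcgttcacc
A match describes these letters only and is not evidence of binding.

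Pklr, which makes pyruvate at the end of glycolysis, stood at 58.6, 62.4, 71.8, 66.4 and 61.8 CPM in water replicates 1 to 5 and at 162, 108, 213, 233 and 140 CPM in glucose replicates 1 to 5. The lowest glucose library exceeded the highest water library by a wide margin. The log2 difference was 1.41 ± 0.53 (SE, adjusted p = 1 in the whole-series model) and 1.43 ± 0.18 in the 10 libraries alone (edgeR, adjusted p = 0.00627). Without the pair of kidney-bearing libraries, the 8 libraries alone gave 1.32 with an adjusted p of 0.0517. Pklr (chr3:89136142-89146784, plus strand, mm10) overlaps the ion channel gene Hcn3 (chr3:89146074-89160196, minus strand) at its end. Hcn3 was also higher in every glucose library (log2 difference 1.46 ± 0.52), and since no source used here says whether the counting used strand, reads of the shared stretch cannot be told apart between the genes.

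Of the enzymes of fructose breakdown, Dak separated most. It stood at 282, 263, 340, 348 and 298 CPM on water and at 642, 750, 698, 624 and 581 CPM on glucose. All 5 glucose libraries were higher than all 5 water libraries. The log2 difference was 1.11 ± 0.31 (adjusted p = 0.599) and 1.12 ± 0.12 with the 10 libraries alone (edgeR, adjusted p = 0.00391). The transporter Slc2a2 ranged from 86.5 to 138 CPM on water and from 145 to 228 CPM on glucose, without overlap (log2 difference 0.56 ± 0.28). Ketohexokinase (Khk), the first enzyme of the route, overlapped, at 470 to 641 CPM on water and 537 to 869 CPM on glucose (0.28 ± 0.23). Neither Slc2a2 nor Khk was called with the 10 libraries alone (edgeR, adjusted p = 0.390 and 0.830).

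Rgs16 speeds the shutdown of G protein signals and is a known ChREBP target. It gave the largest fitted difference among the 31 genes of the panel. Its levels were 1.85, 1.50, 2.69, 3.79 and 2.41 CPM on water and 33.3, 17.7, 16.1, 7.62 and 24.5 CPM on glucose. Glucose replicate 4 was the nearest to the water libraries and still above them. The log2 difference was 3.02 ± 0.86 (adjusted p = 0.631) and 3.05 ± 0.39 with the 10 libraries alone (edgeR, adjusted p = 0.0126). Fgf21, a hormone that the liver secretes on sugar intake as well as on fasting, stood at 1.30, 1.20, 0.441, 0.679 and 1.56 CPM on water and 4.82, 4.62, 3.27, 1.84 and 8.60 CPM on glucose. These groups did not overlap either, although the log2 difference of 2.15 ± 0.71 was not called in the 10 libraries alone (edgeR, adjusted p = 0.115). Gpd2, the mitochondrial glycerol phosphate dehydrogenase that passes cytosolic electrons to the respiratory chain, ranged from 13.8 to 20.7 CPM on water and from 26.6 to 43.2 CPM on glucose, and rose in the fit of the 10 libraries alone (log2 difference 0.91 ± 0.14, edgeR, adjusted p = 0.0197).

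Other genes that sense or handle glucose overlapped between the drinks. Txnip, an arrestin-like inhibitor of glucose uptake, ranged from 27.6 to 43.5 CPM on water and from 33.2 to 58.7 CPM on glucose (log2 difference 0.40 ± 0.39). Mlxipl itself spread from 357 to 1007 CPM on glucose around water levels of 464 to 628 CPM (0.27 ± 0.31). G6pc, which releases free glucose and is at once a ChREBP and a FoxO1 target, pointed lower at -0.40 ± 0.41, with a spread of 108 to 507 CPM within the water group alone.

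**Figure D3:**
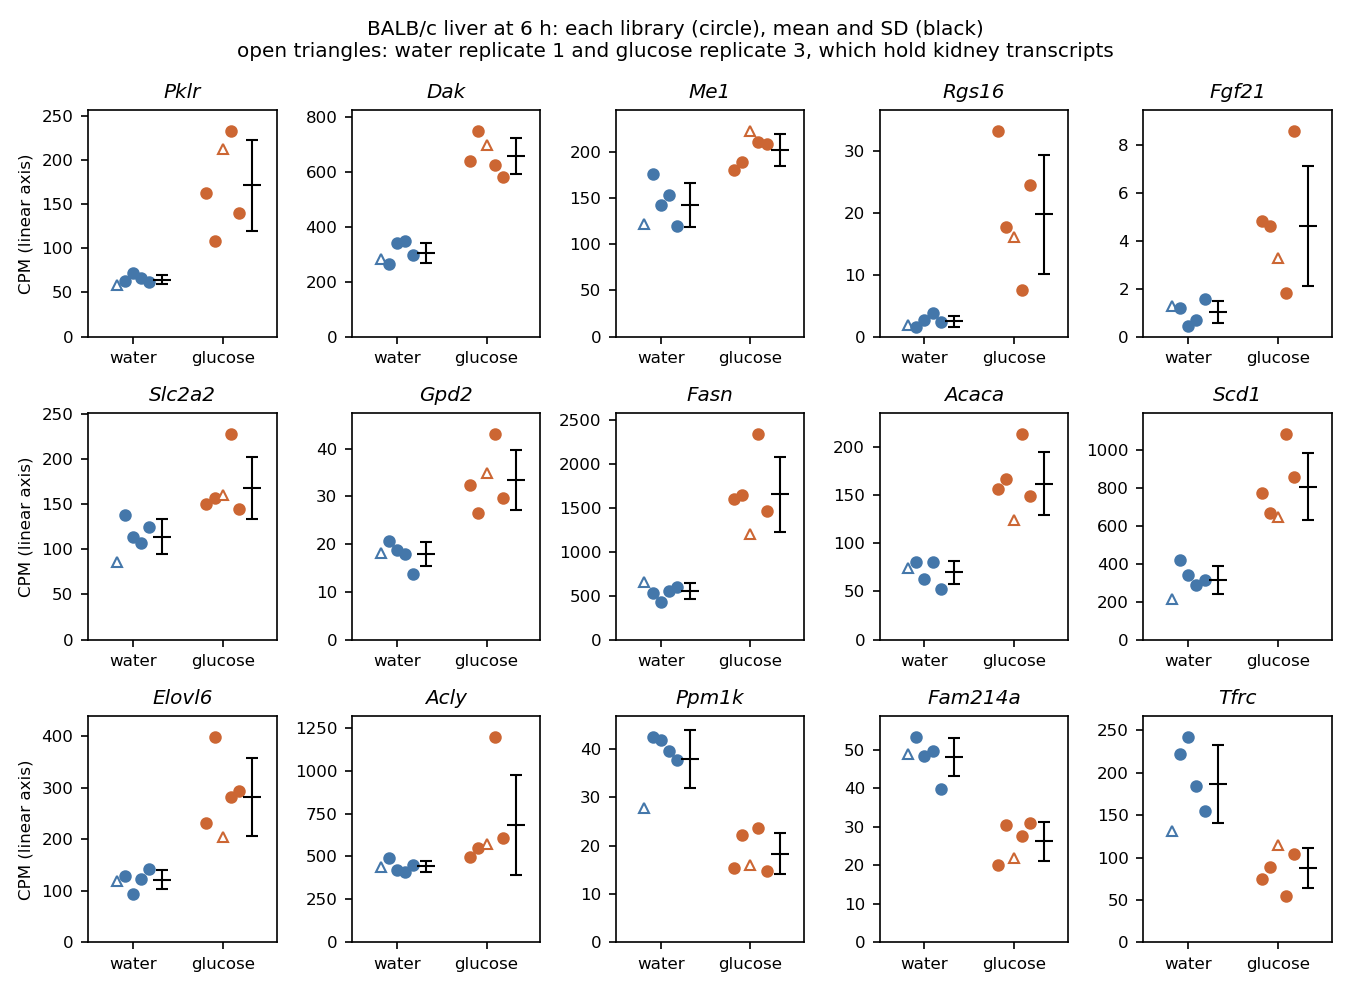
CPM (linear axis from 0) of 15 genes in each of the 5 water (blue) and 5 glucose (orange) libraries, with the mean and SD in black. For all 15 genes the groups do not overlap, and the open triangles, water replicate 1 and glucose replicate 3, lie with their groups.

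Over the 19 known ChREBP targets listed, all of which were tested, 0 were called in the whole-series model and 6 with the 10 libraries alone (Fasn, Dak, Pklr, Scd1, Elovl6 and Rgs16). All 6 were higher, where that fit called 0.0935% of all genes higher. At an unadjusted p below 0.05, 8 were higher and 0 lower, where 2.16% of all genes were higher. For 11 of the 19 (57.9%) every glucose library lay above every water library, against 0.598% of all genes, and for 0 the reverse. The median log2 difference was 0.51, against 0.01 over all genes tested, and 0.42 without the kidney-bearing pair. The members below 0 were G6pc, Ppp1r3c, Ppp1r3b and Gpd1, the lowest of them G6pc. Of 19 genes of glycolysis, by contrast, Pklr was the 1 member without overlap, and the median was 0.03. Pfkfb3, an enzyme that makes the activator of phosphofructokinase, spread from 5.26 to 18.7 CPM on glucose and from 3.21 to 6.75 CPM on water (0.96 ± 0.37).

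Enzymes along the route from citrate to long-chain fatty acids separated together. Fasn stood at 661, 535, 424, 551 and 602 CPM on water and at 1607, 1643, 1207, 2346 and 1468 CPM on glucose. The highest water library lay well below the lowest glucose library, which was replicate 3. The log2 difference was 1.58 ± 0.44 (adjusted p = 0.599), 1.58 ± 0.18 with the 10 libraries alone (edgeR, adjusted p = 0.00391) and 1.77 with the 8 libraries without kidney transcripts alone (adjusted p = 0.00997). Acaca, which makes the malonyl-CoA that Fasn consumes, stood at 74.0, 80.3, 62.7, 80.3 and 53.1 CPM on water and at 156, 167, 124, 214 and 149 CPM on glucose. It had the smallest p of the genes named here (3.63e-05, adjusted p = 0.352), with a log2 difference of 1.21 ± 0.28 and no overlap. It was called with the 10 libraries alone (edgeR, adjusted p = 0.00627) and with DESeq2. The whole-series model also called it without water replicate 1 or without glucose replicate 3, where kidney transcripts stay in 1 group only. Those fits called 52 and 23 genes, of which 41 and 21 were at least 5 times higher in water replicate 1 than in any other water library. With both libraries left out, Acaca gave 1.32 ± 0.32 and was not called (edgeR, adjusted p = 0.351).

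Scd1, which puts the first double bond into stearate, stood at 216, 420, 339, 287 and 314 CPM on water and at 771, 669, 649, 1086 and 860 CPM on glucose. The groups were far apart, and in the 10 libraries alone the log2 difference was 1.37 ± 0.18 (edgeR, adjusted p = 0.00886). In the whole-series model the standard error of the same gene was 0.65. Elovl6, which extends palmitate to stearate, stood at 120, 130, 93.5, 123 and 143 CPM on water and at 232, 399, 204, 282 and 295 CPM on glucose. Its log2 difference was 1.21 ± 0.41, and 1.22 ± 0.17 with the 10 libraries alone (edgeR, adjusted p = 0.0126). The other genes of this route without overlap, none called in either fit, were ATP citrate lyase (Acly), malic enzyme (Me1) and the mitochondrial carboxylase Acacb. Acly ranged from 411 to 490 CPM on water and from 496 to 607 CPM on glucose but for replicate 4 at 1197 CPM (log2 difference 0.63 ± 0.39). Me1, a source of NADPH, lay at 119 to 176 CPM on water and 180 to 223 CPM on glucose (0.51 ± 0.29), and Acacb at 98.6 to 123 CPM and 133 to 199 CPM (0.60 ± 0.30).

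The regulators of lipogenesis were less clear. Srebf1 stood at 282, 281, 263, 233 and 265 CPM on water and at 366, 542, 221, 653 and 441 CPM on glucose. Glucose replicate 3, a library with kidney transcripts, lay below every water library and the other 4 lay above all of them. The log2 difference was 0.75 ± 0.27, and 0.95 without the kidney-bearing pair. The same replicate kept Mid1ip1, an activator of acetyl-CoA carboxylase, from separating (73.7 CPM against a water maximum of 75.5 CPM, log2 difference 0.83 ± 0.30). Thrsp, its relative, overlapped broadly (343 to 713 CPM on water, 528 to 964 CPM on glucose, 0.35 ± 0.46), as did the lipid droplet gene Pnpla3 (2.69 to 10.6 CPM and 5.22 to 17.0 CPM, 0.75 ± 0.56).

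Of 24 genes of fatty acid and triglyceride synthesis, which share Acly, Fasn, Scd1, Elovl6 and Me1 with the ChREBP list, 0 were called in the whole-series model and 4 with the 10 libraries alone. All 4 were higher, where that fit called 0.0935% of all genes higher. At an unadjusted p below 0.05, 7 were higher and 0 lower, where 2.16% of all genes were higher. For 7 (29.2%) every glucose library lay above every water library, against 0.598% of all genes. The median log2 difference was 0.41, and 0.10 without the kidney-bearing pair. Of the enzymes that join fatty acids to glycerol, Dgat1, Dgat2, Agpat2 and Lpin2 had log2 differences between -0.26 and -0.04. Gpam, the acyltransferase that starts this step, gave 1.03 ± 0.58, with glucose replicate 4 at 545 CPM, the other glucose libraries at 84.6 to 102 CPM and the water libraries at 55.4 to 130 CPM; without that library the difference was 0.03. The phosphatase Lpin1 overlapped too (0.47 ± 0.55, and 0.08 without the kidney-bearing pair). In the pentose phosphate and NADPH list, Rpia, the ribose phosphate isomerase, was the other member without overlap besides Me1 (12.2 to 16.5 CPM on water, 17.4 to 24.9 CPM on glucose, 0.48 ± 0.22).

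Beyond these pathways, further genes were called higher with the 10 libraries alone. Osgin1, an oxidative stress-induced growth inhibitor, stood at 184, 185, 145, 145 and 175 CPM on water and at 475, 325, 251, 330 and 361 CPM on glucose. Every glucose library was higher, and the log2 difference was 1.08 ± 0.17 (edgeR, adjusted p = 0.0185). Ddhd2, a phospholipase that also hydrolyses triglyceride, stood at 15.3, 16.9, 13.5, 17.1 and 13.8 CPM on water and at 26.1, 32.5, 24.3, 25.5 and 24.5 CPM on glucose. The groups were narrow and apart (0.81 ± 0.12, edgeR, adjusted p = 0.0167, against 0.79 ± 0.20 and 0.352 in the whole-series model). Klhdc7a ranged from 16.0 to 23.7 CPM on water and from 31.1 to 43.8 CPM on glucose (0.88 ± 0.14, edgeR, adjusted p = 0.0224). Lrrc28 ranged from 13.2 to 19.9 CPM and from 22.7 to 28.9 CPM (0.75 ± 0.12, edgeR, adjusted p = 0.0279).

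Both genes called lower with the 10 libraries alone were separated as cleanly. Ppm1k, the mitochondrial phosphatase that activates breakdown of branched-chain amino acids and that is also known to act on ATP citrate lyase, stood at 27.7, 42.5, 41.7, 39.5 and 37.8 CPM on water and at 15.4, 22.1, 15.9, 23.6 and 14.7 CPM on glucose. Water replicate 1 was the lowest of its group and still above all glucose libraries. The log2 difference was -1.04 ± 0.26 (adjusted p = 0.352) and -1.03 ± 0.16 with the 10 libraries alone (edgeR, adjusted p = 0.0178). Fam214a stood at 49.0, 53.4, 48.5, 49.7 and 39.8 CPM on water and at 20.0, 30.4, 21.9, 27.7 and 31.0 CPM on glucose (-0.88 ± 0.22, and -0.86 ± 0.13 with the 10 libraries alone, edgeR, adjusted p = 0.0178). Without the kidney-bearing pair, the 8 libraries alone gave Ppm1k an adjusted p of 0.0517 and Fam214a one of 0.155.

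The genes with the smallest unadjusted p that no fit of the 10 libraries called are given as values only. Picking by p in these same libraries favours groups without overlap, so a lack of overlap is no separate support for them. On the higher side were Lhx6, a homeobox gene (2.14 to 6.73 CPM on water, 7.25 to 12.7 CPM on glucose, log2 difference 1.32 ± 0.34), Frmd8 (14.3 to 16.5 CPM and 18.5 to 28.6 CPM, 0.65 ± 0.17), Phlpp2, a phosphatase that opposes Akt (3.04 to 4.99 CPM and 5.26 to 8.24 CPM, 0.61 ± 0.18), Dhx33 (26.6 to 27.9 CPM and 37.2 to 54.5 CPM, 0.63 ± 0.19) and Farp1 (14.1 to 18.9 CPM and 21.8 to 32.2 CPM, 0.55 ± 0.17). None of these 5 overlapped between the groups. On the lower side, the transferrin receptor Tfrc, which imports iron, stood at 131, 223, 242, 185 and 155 CPM on water and at 75.2, 89.1, 115, 55.2 and 104 CPM on glucose (-1.09 ± 0.28, adjusted p = 0.352). It did not overlap, nor did Ap4s1, a subunit of an adaptor complex (13.2 to 17.2 CPM and 8.89 to 12.1 CPM, -0.55 ± 0.14), or Hpgd, which inactivates prostaglandins (119 to 209 CPM and 63.0 to 111.5 CPM, -0.64 ± 0.20). Dtd1 (-0.52 ± 0.14), Nostrin (-0.55 ± 0.15) and Eid1 (-0.64 ± 0.20) also stood lower in every glucose library than in every water library. Slc15a4, a lysosomal peptide and histidine transporter, overlapped through water replicate 1 at 36.4 CPM, while the other water libraries lay at 61.3 to 80.2 CPM and the glucose libraries at 27.5 to 44.8 CPM (-0.85 ± 0.22).

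Genes of cholesterol synthesis leaned lower with glucose. No member was separated, where 0.598% of all genes were separated higher and 0.497% lower. Of 25 tested, 0 were called in either fit, and 3 had an unadjusted p below 0.05, all lower, where 1.68% of all genes were lower. A positive difference was found for 2, against 51.5% of all genes, and the median was -0.25. Methylsterol monooxygenase (Msmo1) stood at 259, 150, 125, 202 and 112 CPM on water and at 58.8, 57.1, 105, 105 and 140 CPM on glucose. The groups overlapped through glucose replicate 5, and the log2 difference was -0.86 ± 0.37. The sterol reductase Tm7sf2 lay at 93.9 to 169 CPM on water and 60.1 to 111 CPM on glucose (-0.56 ± 0.25). Hmgcs1, which makes the HMG-CoA of this route, and squalene epoxidase (Sqle) also overlapped (-0.59 ± 0.36 and -0.32 ± 0.44). The highest library for Msmo1, Tm7sf2, Hmgcs1 and Sqle was water replicate 1 among the water libraries, and the list median without the kidney-bearing pair was -0.17.

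Gluconeogenic genes varied widely within the groups. Pck1, which commits oxaloacetate to glucose synthesis, stood at 222, 888, 1370, 1495 and 210 CPM on water and at 311, 133, 868, 188 and 53.5 CPM on glucose. Water replicates 1 and 5 lay among the glucose libraries. The log2 difference of -1.43 ± 0.64 had an unadjusted p of 0.0288, and the 10 libraries alone gave -1.39 ± 0.85. Without the kidney-bearing pair the difference was -2.52 ± 0.72 (edgeR, adjusted p = 0.730), and for G6pc it was -0.91 ± 0.45. Both genes are also known to be expressed in kidney tubules, and whether kidney RNA changed these values was not tested. Tat and Sds, which start the breakdown of tyrosine and serine, gave -0.86 ± 0.42 and -1.08 ± 0.42 and overlapped. Ppargc1a (-0.39 ± 0.35) was lower on average, while the FoxO1 targets Igfbp1 (1.13 ± 1.06) and Irs2 (0.66 ± 0.56) and the glucose 6-phosphate transporter Slc37a4 (0.31 ± 0.20) were higher on average. Of the 18 genes of gluconeogenesis and FoxO1, 0 were called in either fit, and the median was -0.20. An unadjusted p below 0.05 was found for 3, all lower, where 1.68% of all genes were lower.

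Amino acid catabolism leaned lower in nearly all of its genes. Of 24 tested, 0 were called in either fit, and 23 had a negative difference, against 48.29% of all genes. An unadjusted p below 0.05 was found for 5, all lower, where 1.68% of all genes were lower, and the median was -0.29. Alanine aminotransferase (Gpt) stood at 409, 459, 538, 471 and 411 CPM on water and at 286, 333, 302, 403 and 353 CPM on glucose, without overlap (-0.45 ± 0.17). Ornithine aminotransferase (Oat) did not overlap either (408 to 545 CPM and 297 to 392 CPM, -0.45 ± 0.27). Arginase (Arg1) ranged from 1186 to 2232 CPM on water and from 1027 to 1547 CPM on glucose (-0.51 ± 0.25), and histidine ammonia-lyase (Hal) from 268 to 365 CPM and from 166 to 357 CPM (-0.47 ± 0.21).

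Fatty acid oxidation and ketogenesis leaned lower by small differences. None of 28 genes had an unadjusted p below 0.05, against 3.84% of all genes. A positive difference was found for 5, against 51.5% of all genes, at a median of -0.19. Without the kidney-bearing pair the median was -0.25. Every water library then lay above every glucose library for 4, against 2% of all genes, where all 10 libraries gave 0, against 0.497%. The carnitine transferase Cpt1a, which malonyl-CoA inhibits, gave -0.35 ± 0.25, the carnitine carrier Slc25a20 -0.29 ± 0.18 and the thiolase Acaa1b -0.59 ± 0.32. Drug-metabolizing P450 enzymes and their regulators leaned lower, with 1 of 16 tested positive, against 51.5% of all genes, and a median of -0.30. At an unadjusted p below 0.05, 5 of 16 were lower, where 1.68% of all genes were. The other listed member, Cyp3a41a, did not pass the filter on low counts. Cyp1a2, a caffeine-metabolizing enzyme, stood at 354, 1539, 534, 448 and 381 CPM on water and at 383, 290, 307, 281 and 306 CPM on glucose (-1.05 ± 0.31). Water replicate 2 stood far above the rest, glucose replicate 1 reached into the water range, and the difference without water replicate 2 was -0.45 ± 0.30. That library is also the 1 of the 10 whose name in the count table carries a suffix, the meaning of which no source used here gives. Cyp1a2 gave -1.07 with the suffix as a covariate and -0.45 without all suffix libraries of the series. Cyp2c37 (47.0 to 90.0 CPM on water and 12.3 to 50.3 CPM on glucose, -0.80 ± 0.34), Cyp2b9 (1.35 to 142 CPM and 0.603 to 23.4 CPM, -2.40 ± 1.14) and the receptor Nr1i3 (88.5 to 135 CPM and 74.4 to 116 CPM, -0.45 ± 0.22) also overlapped.

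Chaperones of the endoplasmic reticulum leaned higher. In the unfolded protein response list, 18 of 20 genes had a positive difference, against 51.5% of all genes, and the median was 0.26. An unadjusted p below 0.05 was found for 2, both higher, where 2.16% of all genes were higher, and 0 were called in either fit. Hsp90b1 stood at 756, 741, 886, 899 and 1091 CPM on water and at 1187, 1352, 1158, 1415 and 1304 CPM on glucose, without overlap (0.55 ± 0.22). Xbp1, the transcription factor of this response, overlapped through glucose replicate 2 (164 to 186 CPM and 174 to 270 CPM, 0.38 ± 0.17). Among ATF4 targets, Atf5 was separated narrowly (330 to 415 CPM and 416 to 620 CPM, 0.45 ± 0.19) and Chac1, which degrades glutathione, lay at 0.375 to 0.804 CPM and 0.935 to 1.69 CPM (0.96 ± 0.59). The folate enzyme Mthfd2 (1.04 ± 0.39) and the serine enzyme Psat1 (1.39 ± 0.54, and 0.58 without glucose replicate 5) overlapped. Of the 18 genes of the ATF4 list 12 had a positive difference, against 51.5% of all genes, and the median was 0.22. An unadjusted p below 0.05 was found for 3, all higher, where 2.16% of all genes were higher, and 0 were called in either fit. Atf4 (-0.07) and Ddit3 (-0.04) themselves were near 0, and Cth, which makes cysteine, gave -0.51 ± 0.37.

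Growth hormone targets were scattered among the glucose libraries. Cish, an early target of growth hormone signalling, stood at 1.59, 1.01, 0.0882, 0.120 and 0.381 CPM on water and at 4.78, 0.553, 3.62, 0.0438 and 16.3 CPM on glucose. Glucose replicates 1, 3 and 5 were above every water library, replicate 2 was in the water range and replicate 4 was below it. The related inhibitor Socs2 was highest in glucose replicates 1 and 3 (22.3 and 14.1 CPM) and lowest of all 10 libraries in replicate 4 (0.788 CPM), with a log2 difference of 1.71 ± 0.77 against 2.96 ± 0.99 for Cish. Onecut1, another gene under growth hormone, gave 1.34 ± 0.60, and Igf1 -0.34 ± 0.19. Of the immediate early genes, 14 of 18 had a positive difference, against 51.5% of all genes, at a median of 0.45. With all 10 libraries 0 were without overlap, against 0.598% of all genes higher and 0.497% lower. Without the kidney-bearing pair, every glucose library lay above every water library for 3, against 1.56% of all genes. The 1 with an unadjusted p below 0.05, against 3.84% of all genes, was Dusp6, the phosphatase that ends ERK signalling (22.1 to 37.6 CPM on water and 33.7 to 60.3 CPM on glucose, 0.64 ± 0.27).

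The core clock showed no separated gene among 19, where 0.598% of all genes were separated higher and 0.497% lower. Per2 (0.13 ± 0.34), Dbp (-0.31 ± 0.46) and Arntl (-0.08 ± 0.21) had intervals that include 0, and Ciart, a repressor within the clock, had the smallest p of the list (2.26 to 6.30 CPM on water, 1.45 to 2.76 CPM on glucose, -1.04 ± 0.47). Among genes of ribosome biogenesis, Nop2, a ribosomal RNA methyltransferase, was the 1 of 24 without overlap (24.1 to 28.1 CPM and 29.9 to 40.6 CPM, 0.42 ± 0.18). Every glucose library lay above every water library for 0.598% of all genes. The 24 cytosolic ribosomal protein and elongation factor genes all had a negative difference, against 48.29% of all genes, within a narrow band of -0.19 to -0.08. Their smallest unadjusted p was 0.135 (Rpl4, edgeR), and all of them overlapped between the drinks. Acute phase genes had a median of 0.24 and interferon response genes one of -0.14. An unadjusted p below 0.05 was found for 0 members of either, against 3.84% of all genes.

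**Figure D4:**
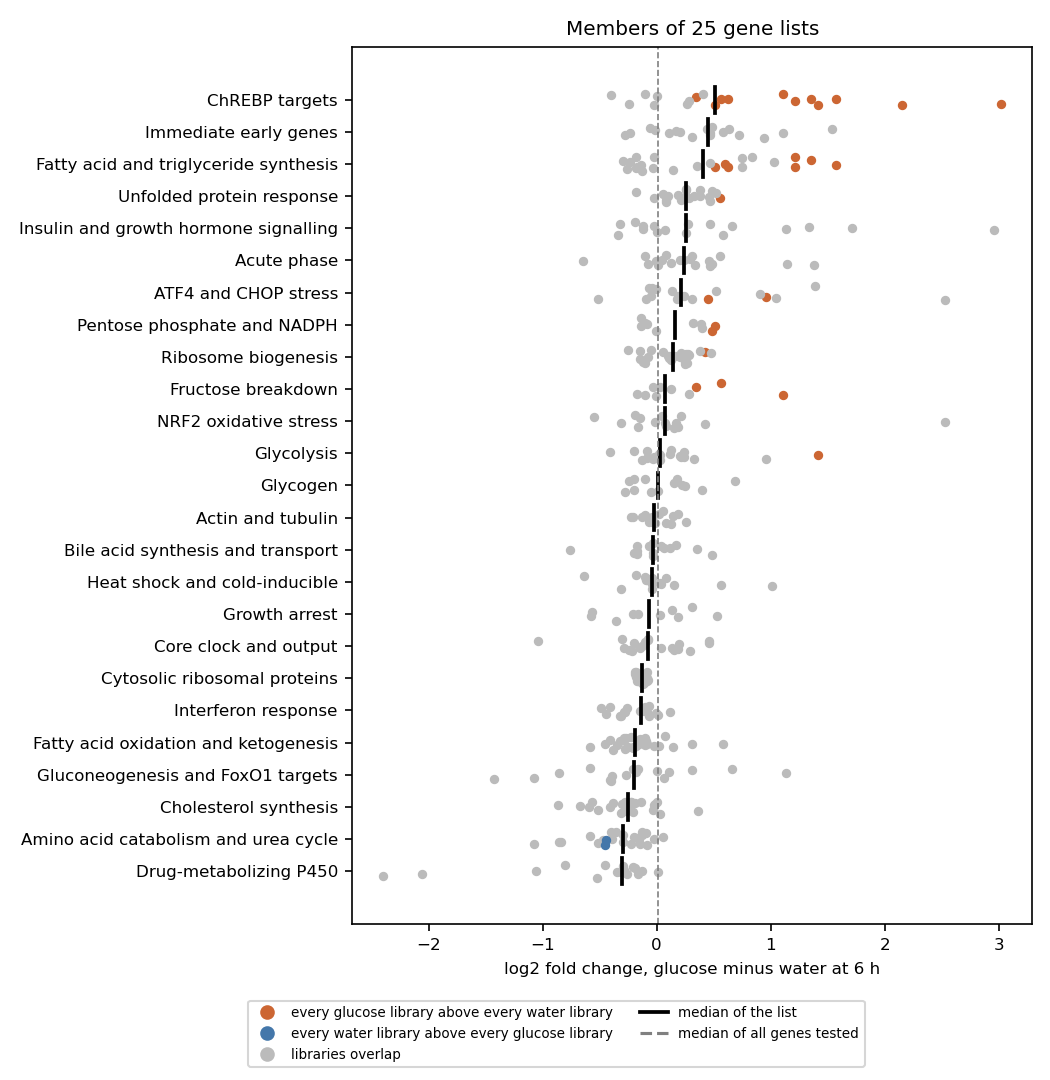
Log2 fold change, glucose minus water at 6 h in the whole-series model, of each tested member of 25 gene lists, ordered by the list median (black bar), with the median of all genes as a dashed line. Orange members have every glucose library above every water library and blue members the reverse; orange is densest in the ChREBP and fatty acid synthesis lists, and the 2 blue members are Gpt and Oat.

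Levels at other times place these values. Fasn averaged 67.2 ± 13.1 CPM (SD, n = 5) in BALB/c livers before feeding, 416 ± 132 CPM after 3 h on water and 929 ± 331 CPM after 3 h on glucose, against 555 ± 88.2 and 1654 ± 423 CPM at 6 h. Rgs16 averaged 188 ± 114 CPM before feeding and 1.46 ± 0.44 CPM after 3 h on water, so that the glucose libraries at 6 h, at 19.9 ± 9.64 CPM, lay between the refed water level and the fasted one. For Hsp90b1 the log2 difference was -0.27 ± 0.22 at 3 h and 0.55 ± 0.22 at 6 h. At 3 h glucose against water called 0 genes (0%) with 242 (1.43%) at an unadjusted p below 0.05 (edgeR). The difference between the glucose effects at 6 h and 3 h was tested as an interaction: edgeR called 0 genes (0%) with 263 (1.56%) at an unadjusted p below 0.05, and DESeq2 called 9 (0.0533%). For Fasn the interaction was 0.42 (unadjusted p = 0.498), for Ddhd2 0.59 (0.0341) and for Fam214a -0.69 (0.0307). The median of the ChREBP targets was 0.35 at 3 h and 0.51 at 6 h.

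In C57BL6/J, the other inbred strain of the series, male mice handled alike gave 5 libraries on each drink at 6 h, and the same contrast called 70 genes higher (0.415%) and 30 lower (0.178%). Of the 70, 48 (68.57%) had a positive difference in BALB/c, where 51.5% of all genes did, and 8 (11.4%) were separated in BALB/c in the same direction, against 0.598% of all genes. Of the 30, 28 (93.33%) had a negative difference in BALB/c, against 48.29% of all genes, and 4 (13.3%) were separated in the same direction, against 0.497%. The median difference of the 70 was 0.17 in BALB/c and 1.42 in C57BL6/J, and that of the 30 was -0.24 and -0.70. These genes were picked by their C57BL6/J values, which favours large differences there. Acaca (1.18 ± 0.28, edgeR, adjusted p = 0.0229), Ddhd2 (0.75 ± 0.20, adjusted p = 0.0414) and Lhx6 (1.35 ± 0.34, adjusted p = 0.0318) rose in C57BL6/J, and their BALB/c differences were 1.21, 0.79 and 1.32. Rgs16 gave 0.86 ± 0.79 in C57BL6/J and 3.02 ± 0.86 in BALB/c, and the interaction, 2.16 ± 1.14, had an unadjusted p of 0.0612. Pnpla3 gave 2.09 ± 0.57 in C57BL6/J against 0.75 ± 0.56.

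The strain interaction called 1 gene (0.00592%), and DESeq2 called 9 (0.0533%). The gene was Tifa, an adaptor in innate immune signalling. Its levels were 1.52, 2.63, 1.19, 2.04 and 3.72 CPM on water and 1.73, 1.41, 1.21, 1.93 and 2.00 CPM on glucose in BALB/c. In C57BL6/J it ranged from 4.74 to 6.86 CPM on water and from 4.83 to 123 CPM on glucose, with replicate 1 at 123 CPM, replicate 2 at 15.0 CPM and the other 3 at 4.83 to 6.05 CPM. The interaction was -2.92 ± 0.57 (edgeR, adjusted p = 0.0210), and -2.95 ± 0.61 (adjusted p = 0.0710) without the kidney-bearing pair. Without replicate 1 of every group it was -1.05 ± 0.48 (edgeR, adjusted p = 1). For Fasn, Acaca, Scd1 and Elovl6 the interactions were 0.35 ± 0.61, 0.03 ± 0.39, -0.02 ± 0.91 and -0.33 ± 0.58, and for Fasn, Scd1 and Elovl6 these errors leave a difference of 1 in either direction undetectable.

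Fructose and sucrose were given to BALB/c mice in the same way, with 5 libraries each at 6 h, and share the water libraries with the glucose comparison. Set side by side, Fasn gave 1.58 with glucose, 0.63 with fructose and 2.09 with sucrose against water, Scd1 1.36, 0.01 and 1.15, Pklr 1.41, 1.09 and 1.65, Dak 1.11, 1.11 and 1.44, and Rgs16 3.02, 3.75 and 4.40. Ppm1k gave -1.04 with glucose, -0.08 with fructose and -0.94 with sucrose, and Tfrc -1.09, -1.41 and -1.28. Ranges were wide: Fasn spanned 120 to 1646 CPM on fructose and 304 to 4302 CPM on sucrose. Tested directly, glucose minus fructose was 0.95 ± 0.44 for Fasn (unadjusted p = 0.0326, adjusted p = 0.659), 1.34 ± 0.65 for Scd1 (0.0419, adjusted 0.704), 0.96 ± 0.30 for Acacb (0.00186, adjusted 0.189) and -0.96 ± 0.26 for Ppm1k (0.000356, adjusted 0.0721), none of which passed (edgeR).

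Between glucose and fructose 71 genes were called (0.42%), 54 higher (0.32%) and 17 lower (0.101%) with glucose. Between glucose and sucrose 47 were called (0.278%), 40 higher (0.237%) and 7 lower (0.0415%). Glucose replicate 3, one of the kidney-bearing libraries, was at least 5 times any other glucose library for 47 of the 54 and for 36 of the 40 higher genes. Slc22a12, the renal urate transporter, stood at 52.7 CPM there and at 0 to 0.0412 CPM in the other 4 glucose libraries. Without the kidney-bearing pair 0 genes were called in either contrast, with 865 and 491 at an unadjusted p below 0.05 (edgeR); DESeq2 on all libraries called 82 (0.486%) and 41 (0.243%). The other called genes, for which that library was less than 5 times any other or which were lower, were chosen for mention after their values were seen. They were 24 for fructose (7 higher and 17 lower with glucose) and 11 for sucrose (4 higher and 7 lower). Some of these also shrank without the kidney-bearing pair, such as Fuca2 against fructose, from 0.99 to 0.25, and Atp6v1c2 against sucrose, from 3.61 to 2.39. Fits of the libraries of each contrast alone called 0 genes in both (edgeR), with 627 and 451 at an unadjusted p below 0.05. Gch1, which starts the synthesis of tetrahydrobiopterin, ranged from 29.7 to 38.6 CPM on glucose and from 38.7 to 189 CPM on fructose (glucose minus fructose -1.16 ± 0.24, edgeR, adjusted p = 0.00385, and -1.18 with an adjusted p of 0.0720 without the kidney-bearing pair). Acute phase genes of the liver spread widely. Saa1, an acute phase apolipoprotein whose near-identical copies make its counts uncertain, ranged from 8.49 to 103 CPM on glucose and from 9.91 to 10380 CPM on fructose (-6.00 ± 1.50, adjusted p = 0.0344, and -5.75 with 0.286 without the pair). Orm2, an acute phase glycoprotein that also has close copies, ranged from 5.88 to 25.2 CPM on glucose and from 9.54 to 1470 CPM on sucrose (-4.81 ± 1.01, adjusted p = 0.00662, and -4.60 with 0.307 without the pair). Both ranges overlap, and the spread lies within the fructose and sucrose groups.

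**Figure D5:**
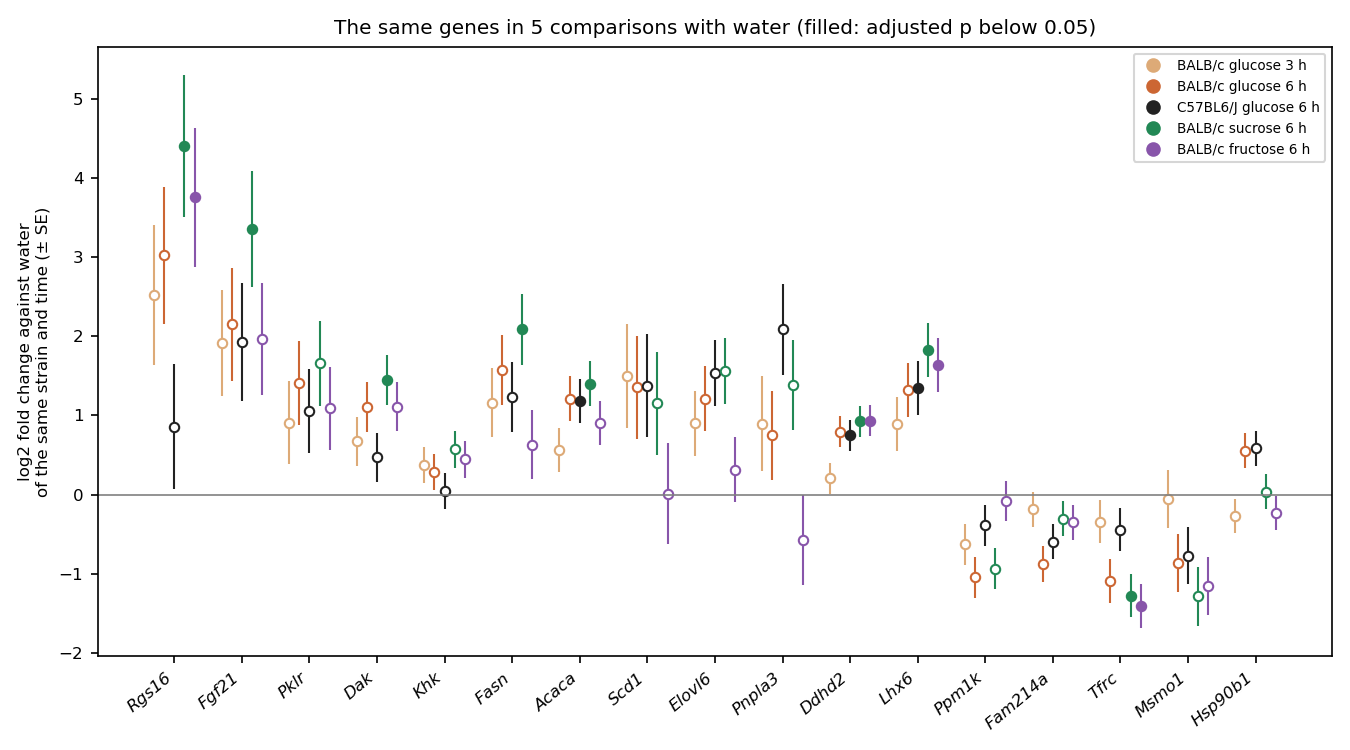
Log2 fold change against water of the same strain and time, with SE, of 17 genes in 5 comparisons; filled symbols have an adjusted p below 0.05. The 3 BALB/c comparisons at 6 h share their 5 water libraries, and all symbols of BALB/c glucose at 3 h and 6 h are open.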

How the data were processed

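Liver RNA was sequenced as 150 bp paired reads. The values used are raw read counts for each gene, deposited by the authors and made with CASAVA, STAR 2.5, HTSeq 0.6.1 and DESeq2 on mm10 (GRCm38). These names come per the submitters' processing notes without a role, and whether strand was used is not stated there. FPKM values that the authors deposited were not used. Of 35275 genes, 8695 had no read.

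In R 4.3.3, edgeR 4.0.16 (filterByExpr over 26 groups, TMM, robust quasi-likelihood test, Benjamini-Hochberg adjustment over 16886 genes, threshold 0.05) was fitted to all libraries of the series with a mean per group. Alternatives were DESeq2 1.42.0, RLE factors, no filter, a replicate block, the name suffix as a covariate or its libraries left out, the contrast's libraries alone, and leaving libraries out. The fit was checked on simulated counts. Replicates share only a number: same-numbered water and glucose libraries deviated with correlations of -0.26 to 0.13. No libraries were duplicates (lowest chi-square per degree of freedom 19.6).

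Named genes are a panel of 31, the 10 genes per direction with the smallest p, a mean of at least 5 CPM and a symbol that is not a clone name, up to 4 per list and 5 per further contrast; not all are described, and some are not reported here. Genes called with the 10 libraries alone, and further list members that are separated or stand in a described step, were added after their values were seen. Members and lists were chosen with earlier results of these data known. Of 590 list symbols, 587 matched.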

Additional observations from a re-analysis of the deposited data

Results flagged for a closer look

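Each gene described above and each summed marker list was looked at within its 5 water and its 5 glucose libraries for a library far from the other 4. For normally distributed values, chance marks about 1 in 20 such groups. CPM were taken on the linear scale and some genes were added after their values were seen, so the counts cannot be weighed against that rate. Of 168 gene groups 19 had one, and of 28 marker groups 4. The kidney libraries among the latter were known beforehand, and the cornified epithelium list was chosen after the data were seen.

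Water replicate 2 accounted for 7 of the 19. It held the highest water level of the P450 enzymes Cyp1a2 (1539 CPM, the others 354 to 534 CPM), Cyp2c37 (90.0 CPM, the others 47.0 to 56.2 CPM) and Cyp2b9 (142 CPM, the others 1.35 to 34.2 CPM), of Hpgd (209 CPM, the others 119 to 137 CPM), of Ppargc1a (11.1 CPM, the others 5.01 to 6.51 CPM) and, narrowly, of Dhx33 (27.9 CPM, the others 26.6 to 26.9 CPM). It held the lowest water level of Atf5 (330 CPM, the others 391 to 415 CPM). Without it, the glucose minus water log2 difference was -0.45 for Cyp1a2 in place of -1.05, -1.11 for Cyp2b9 in place of -2.40, -0.17 for Ppargc1a in place of -0.39, -0.59 for Cyp2c37 in place of -0.80 and -0.46 for Hpgd in place of -0.64. Dhx33 stayed at 0.65 and Atf5 at 0.39.

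Glucose replicate 4 was far above the other glucose libraries for Acly (1197 CPM against 496 to 607 CPM), Gpam (545 CPM against 84.6 to 102 CPM), Slc2a2 (228 CPM against 145 to 161 CPM) and Arntl (37.5 CPM against 24.7 to 26.8 CPM). The log2 difference without it was 0.33 for Acly, 0.03 for Gpam in place of 1.03 and 0.43 for Slc2a2. Glucose replicate 1 held 31.8 CPM of Igfbp1 against 2.89 to 8.76 CPM, without which the difference of 1.13 was 0.25, and 383 CPM of Cyp1a2 against 281 to 307 CPM. Glucose replicate 2 was high for Ddhd2 (32.5 CPM) and Rpia (24.9 CPM), glucose replicate 3 for Acaa1b (817 CPM against 530 to 598 CPM) and glucose replicate 5 for Dhx33 (54.5 CPM). Water replicate 5 was high for Mthfd2 (4.61 CPM against 1.20 to 2.16 CPM) and low for Nr1i3 (88.5 CPM against 127 to 135 CPM).

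The kidney list stood at 1228 CPM in water replicate 1 and 2143 CPM in glucose replicate 3. Adipose transcripts summed to 157 CPM in water replicate 1 against 43.4 to 64.2 CPM in the other water libraries, and cornified epithelium transcripts to 120 CPM in glucose replicate 5 against 5.34 to 16.1 CPM in the other glucose libraries. The glucose effect on Tifa differed between the strains by -2.92 on the log2 scale, with C57BL6/J glucose replicate 1 far above the rest of its group.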

How the results depend on the processing

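Glucose against water called 0 genes with RLE factors, without a filter, with the name suffix as a covariate, without the libraries that carry it, and without the kidney-bearing pair. It called 5 with DESeq2 (2 higher, 3 lower) and 15 (13 higher, 2 lower) with the 10 libraries alone, and, in fits chosen after seeing the data, 6 with those 10 less the kidney-bearing pair (all higher) and 3 with the 4 BALB/c drinks at 6 h alone (Rgs16 and Klhdc7a higher, Fam214a lower). Leaving out single libraries gave 0 to 52: 52 without water replicate 1, of which 43 were at least 5 times higher in glucose replicate 3 than in any other glucose library, 23 without glucose replicate 3, and 1 (Mbp, lower) without glucose replicate 1. The cause of these changes was not tested, apart from the kidney values given.

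The strain interaction, 1 gene, had 9 with DESeq2, 0 with its libraries alone, 0 without the kidney-bearing pair, 0 without the suffix libraries, 0 with its libraries alone less the pair, and 0 to 17 on leaving out replicates (17 without replicate 1, 2 without replicate 3, 0 without replicate 2 or 4). The time interaction, 0 genes, had 9 with DESeq2 and 0 to 7 on leaving out replicates (2 without replicate 1, 7 without replicate 3). Glucose against fructose, 71 genes, and against sucrose, 47, fell to 0 with the libraries of the contrast alone, without the kidney-bearing pair, with both steps together and with the 4 drinks alone, and to 3 and 1 without the suffix libraries. Leaving out replicates gave 0 to 68 for fructose, with 0 without replicate 3, and 0 to 49 for sucrose, with 30 without replicate 2, 0 without replicate 3 and 26 without replicate 5. The cause was not tested.

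With a replicate block, glucose against water called 0 genes, the strain interaction 1, the time interaction 0, fructose 55 and sucrose 32; it changed no other call. The same-numbered libraries share only a number, so this pairing has no basis in the labels.

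Of 84 genes described, 66 were called under no alternative run, and all 84 kept their direction under each of them. Gene lists named above as leaning one way did so with RLE factors, with DESeq2 and with the 10 libraries alone. These fits compare the same 10 libraries, so the list medians could hardly move. Without the kidney-bearing pair, the medians were -0.17 for cholesterol synthesis and -0.26 for amino acid catabolism. They were -0.38 for P450 enzymes and 0.21 for the unfolded protein response. The median of fatty acid and triglyceride synthesis went from 0.41 to 0.10. With 5 libraries a group and the spread of the whole series, a log2 difference of the size of Fasn's (standard error 0.44) did not pass, and sparse transcripts below about 1 CPM rest on few reads.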
